A study of Mus musculus with 9 samples.

Results

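The 10 neutrophil granule genes Mpo, Elane, Prtn3, Ctsg, Ltf, Camp, Ngp, Lcn2, S100a8 and S100a9 were followed through the transcriptomes of sorted mouse long-term hematopoietic stem cells (LT-HSCs). They were listed by symbol and selected on their levels in single libraries of these data, to set the genes of primary granules beside those of secondary granules and the S100 pair. All 10 were found among the 47643 genes of the count table and all 10 were among the 18205 genes kept for testing. Since the levels in single libraries chose the genes, those levels are given as a description without a test. The same counts enter the contrasts between genotypes, so these are not independent evidence either.

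Bulk RNA sequencing was done on 9 libraries of donor-derived LT-HSCs, 3 for each of 3 genotypes on a C57BL/6 background. WT donors carried Mx1-Cre alone, δKO donors were Pik3calox-lox; Pik3cblox-lox;Pik3cd-/- without Cre, and TKO donors carried the same alleles with Mx1-Cre. Pik3ca, Pik3cb and Pik3cd encode the catalytic class IA PI3K subunits p110α, p110β and p110δ, so p110δ was missing in both δKO and TKO and the floxed genes were open to excision in TKO only. Whole marrow was transplanted into lethally irradiated B6.SJL recipients, and recipients of all 3 genotypes received 250 μg of pIpC 2 times at an interval of 48 hours, which turns on the interferon-driven Mx1 promoter. The Mx1 promoter is not restricted to HSCs or to blood cells, and WT and TKO differ from δKO in carrying Cre. Marrow was collected 4 weeks later, pooled from the 7 recipients of a group, and sorted as Lin-cKit+Sca1+Flk2-CD48-CD150+ cells. Recipients were 6 to 8 weeks old at transplant, and the study's text gives donors of 4 to 6 weeks or, as a general rule, of 6 to 8 weeks. The series calls the 3 libraries of a genotype biological replicates, but separate pools of mice for them are not described, so p-values measure the spread between these libraries, which may be technical.

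Neutrophils load their granules in order as they mature. Promyelocytes make the primary, or azurophilic, granules with myeloperoxidase and the serine proteases, under C/EBPα and PU.1. Myelocytes and metamyelocytes make the secondary, or specific, granules with lactoferrin and the cathelicidin-related proteins, under C/EBPε, while S100A8 and S100A9 fill the cytosol of maturing and mature neutrophils. Low-level transcription of primary granule genes is also known from early progenitors and is called lineage priming. An LT-HSC gate removes cells with surface lineage markers such as Gr-1 and CD11b.

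The libraries held between 31300343 and 60386097 counts. All levels below are CPM, that is counts per 1000000 of the library total multiplied by its TMM factor (a scaling factor for composition), and these factors lay between 0.781 and 1.22. A raw column of the δKO genotype has a number that fits no label and is called the unnumbered δKO library. The stem cell markers fixed for the check of the sort were detected in every library, with Kit (the stem cell factor receptor) between 429 and 948 CPM and Hlf (a transcription factor of HSCs) between 374 and 615 CPM. Ly6a and Slamf1, which encode the Sca1 and CD150 of the gate, are added after their values were seen. Ly6a was at 2.15 CPM in δKO replicate 1 and at 10.2 to 37.2 CPM in the other libraries, and Slamf1 ran from 16.4 to 159 CPM. The T cell genes Cd3e, Cd3g and Cd8a had 0 counts in all 9 libraries, while Cd3d was detected in 8 of them, at up to 8.16 CPM in TKO replicate 1 and 6.49 CPM in WT replicate 3. Counts over the whole Pik3cd gene gave 98.1 to 138 CPM in WT, 38.4 to 91.2 CPM in δKO and 71.1 to 73.4 CPM in TKO libraries. Pik3ca gave 45.7 to 65.0 CPM in WT, 41.3 to 88.2 CPM in δKO and 52.8 to 67.9 CPM in TKO. Pik3cb gave 44.6 to 63.6 CPM in WT, 33.2 to 101 CPM in δKO and 25.4 to 33.9 CPM in TKO. Every TKO library was thus below every WT library for Pik3cb, as for 7.46% of genes tested. Such whole-gene counts do not single out the deleted exons. In bulk RNA, fewer cells of a type and less RNA per cell cannot be told apart, and this holds for every level given here.

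The 10 genes are protein-coding and lie on 6 mouse chromosomes (GRCm38, GENCODE annotation). Prtn3 (chr10:79874476-79883174) and Elane (chr10:79886247-79888215) are neighbours 3072 bases apart on the plus strand, and S100a8 (chr3:90668978-90670035, plus) and S100a9 (chr3:90692632-90695721, minus) lie 22596 bases apart. Camp (chr9:109847379-109849617, minus), Ngp (chr9:110419747-110423012, plus) and Ltf (chr9:111019271-111042767, plus) share chromosome 9, with 570129 bases between Camp and Ngp and 596258 between Ngp and Ltf. Mpo (chr11:87793581-87804413, plus), Ctsg (chr14:56099881-56102574, minus) and Lcn2 (chr2:32384633-32388252, minus) stand alone. The identifiers of Elane and Ctsg carry another version than the annotation used here. An antisense gene, Gm11505, lies inside Mpo and did not exceed 0.655 CPM in any library, and Plppr3, on the opposite strand, overlaps the first bases of Prtn3 and was measured at 67.0 to 161 CPM. Whether reads were counted by strand is not given in the sources used here.

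Promoters of 5 members are printed because the primary granule genes and the 6 secondary granule and S100 genes, called the later genes, differ in the motifs found there. RefSeq windows (GRCm38.p6) of 300 bases, from 250 bases before the annotated start to 50 after it, were available for all 10 genes. Each is written 5′ to 3′ on the gene's strand, with capitals for matches on either strand to GAGGAA, a core that PU.1 binds, or to TTNNGNAA, a C/EBP-type site.
Mpo, plus strand, chr11:87793534-87793833: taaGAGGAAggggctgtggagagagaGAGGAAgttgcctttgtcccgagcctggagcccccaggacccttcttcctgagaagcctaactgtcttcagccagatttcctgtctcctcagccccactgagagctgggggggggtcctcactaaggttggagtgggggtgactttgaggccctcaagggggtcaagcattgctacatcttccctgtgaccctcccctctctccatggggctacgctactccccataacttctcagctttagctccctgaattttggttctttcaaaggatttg
Elane, plus strand, chr10:79886062-79886361: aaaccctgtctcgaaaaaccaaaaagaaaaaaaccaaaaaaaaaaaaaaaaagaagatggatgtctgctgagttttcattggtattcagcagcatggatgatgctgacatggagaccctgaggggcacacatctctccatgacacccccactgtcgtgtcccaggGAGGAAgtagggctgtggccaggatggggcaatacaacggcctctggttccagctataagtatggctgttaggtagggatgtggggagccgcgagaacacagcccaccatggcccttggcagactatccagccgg
Ltf, plus strand, chr9:111019042-111019341: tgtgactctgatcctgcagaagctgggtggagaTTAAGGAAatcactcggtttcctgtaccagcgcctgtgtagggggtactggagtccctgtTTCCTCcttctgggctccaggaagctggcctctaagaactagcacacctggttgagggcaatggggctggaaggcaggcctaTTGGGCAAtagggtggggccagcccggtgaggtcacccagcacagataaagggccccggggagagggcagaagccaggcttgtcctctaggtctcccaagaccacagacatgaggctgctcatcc
Ngp, plus strand, chr9:110419558-110419857: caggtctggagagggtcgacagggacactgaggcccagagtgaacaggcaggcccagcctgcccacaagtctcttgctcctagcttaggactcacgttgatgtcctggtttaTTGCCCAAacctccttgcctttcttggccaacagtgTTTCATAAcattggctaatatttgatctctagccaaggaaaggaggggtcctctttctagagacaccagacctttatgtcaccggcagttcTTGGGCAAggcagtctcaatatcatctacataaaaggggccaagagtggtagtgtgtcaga
S100a9, minus strand, chr3:90695672-90695971: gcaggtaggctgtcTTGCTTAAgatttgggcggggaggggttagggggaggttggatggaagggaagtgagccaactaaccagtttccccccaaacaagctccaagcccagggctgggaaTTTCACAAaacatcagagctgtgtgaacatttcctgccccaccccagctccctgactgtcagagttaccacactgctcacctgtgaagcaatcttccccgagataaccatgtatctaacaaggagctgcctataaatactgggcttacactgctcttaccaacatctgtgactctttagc
The GAGGAA motif was found in 4 of 4 primary granule genes, Mpo, Elane, Prtn3 and Ctsg, and in 3 of 6 later genes, Ltf, Lcn2 and S100a8. It stands in 28.3% of the 27025 promoters of the same length. The TTNNGNAA motif was found in 0 of 4 primary granule genes and in 5 of 6 later genes, that is in all of these but Camp, against 40.7% of all promoters. Ngp held 3 such matches, Ltf and S100a9 held 2 each, and no match overlapped a GAGGAA match. The RUNX core TGTGGT was found in Ctsg, Ltf and S100a9, 3 of 10 genes, against 16.9% of all promoters. The letters TATAAA of the TATA box were found in Ctsg, S100a8 and S100a9, 3 of 10 genes, against 14.2%. Counted from the annotated start, this match began at -30 in S100a8, at 1 in S100a9 and, on the opposite strand, at -237 in Ctsg. Camp held none of the 4 motifs in this window. A match describes letters and not a bound site, and a missing match says only that these letters are not in the window.

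The primary granule genes were high in WT replicate 1 and in the unnumbered δKO library, between these in replicate 2 of each genotype and in WT replicate 3, and low in δKO replicate 1 and TKO replicate 1. Mpo, which encodes myeloperoxidase, the enzyme that makes hypochlorous acid in the phagosome, was measured at 8952, 3230 and 1691 CPM in WT replicates 1, 2 and 3. It stood at 99.1, 3030 and 7222 CPM in δKO replicate 1, δKO replicate 2 and the unnumbered δKO library, and at 59.9, 1887 and 427 CPM in TKO replicates 1, 2 and 3. TKO replicate 2 thus lay above WT replicate 3, and the δKO libraries reached from near the lowest to near the highest level. The highest Mpo library exceeded the lowest by 149-fold.

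Elane encodes neutrophil elastase, the main serine protease of the primary granule. Its levels were 2305, 779 and 531 CPM in WT replicates 1 to 3, then 45.8, 638 and 2528 CPM in δKO replicate 1, δKO replicate 2 and the unnumbered δKO library, and 16.7, 568 and 121 CPM in the TKO replicates. TKO replicate 2 lay above WT replicate 3, so the groups overlapped. Prtn3, which encodes proteinase 3, ran from 17.4 CPM in TKO replicate 1 to 664 CPM in the unnumbered δKO library, with WT between 168 and 543 CPM. Ctsg encodes cathepsin G, a protease with chymotrypsin-like cleavage. Its 3 WT libraries were at 585, 303 and 201 CPM and its 3 TKO libraries at 3.46, 173 and 33.8 CPM, so that every TKO library lay below every WT library. The δKO libraries, at 7.25, 308 and 678 CPM, reached past both ends of the WT range for this gene.

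The secondary granule genes had another order of libraries, with WT replicate 3 on top. Ltf encodes lactoferrin, the iron-binding protein that defines the specific granule. It was measured at 10.9, 98.6 and 1104 CPM in WT replicates 1, 2 and 3, at 48.8, 115 and 55.6 CPM in δKO replicate 1, δKO replicate 2 and the unnumbered library, and at 11.6, 39.3 and 42.0 CPM in the TKO replicates. WT therefore held both the highest and the lowest Ltf library of all 9, which were 102-fold apart. WT replicate 1, the library with the most Mpo, had the least Ltf.

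Ngp encodes neutrophilic granule protein, a cathelin-related protein of the specific granule. Its levels were 164, 362 and 3840 CPM in the WT replicates, 28.5, 295 and 824 CPM in δKO replicate 1, δKO replicate 2 and the unnumbered library, and 41.1, 155 and 161 CPM in the TKO replicates. All 3 TKO libraries were below the lowest WT library, by a narrow margin for TKO replicate 3. Camp, the gene of the antimicrobial cathelicidin CRAMP, was at 24.2, 32.4 and 370 CPM in WT and between 1.22 and 20.9 CPM in TKO. Lcn2 encodes lipocalin 2, which captures bacterial siderophores. It was at 23.0, 63.5 and 547 CPM in WT, between 2.63 and 42.5 CPM in δKO and between 2.37 and 54.5 CPM in TKO, so TKO replicate 2 and WT replicate 1 crossed.

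S100a8 and S100a9 encode the subunits of calprotectin, which binds calcium, zinc and manganese. S100a9 was measured at 131, 227 and 1972 CPM in the WT replicates, at 10.8, 159 and 410 CPM in δKO replicate 1, δKO replicate 2 and the unnumbered library, and at 11.6, 162 and 56.8 CPM in the TKO replicates. S100a8 ran from 3.92 CPM in TKO replicate 1 to 787 CPM in WT replicate 3, with the other WT libraries at 122 and 142 CPM. Both genes followed the secondary granule genes in having their peak in WT replicate 3.

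**Figure D1:**
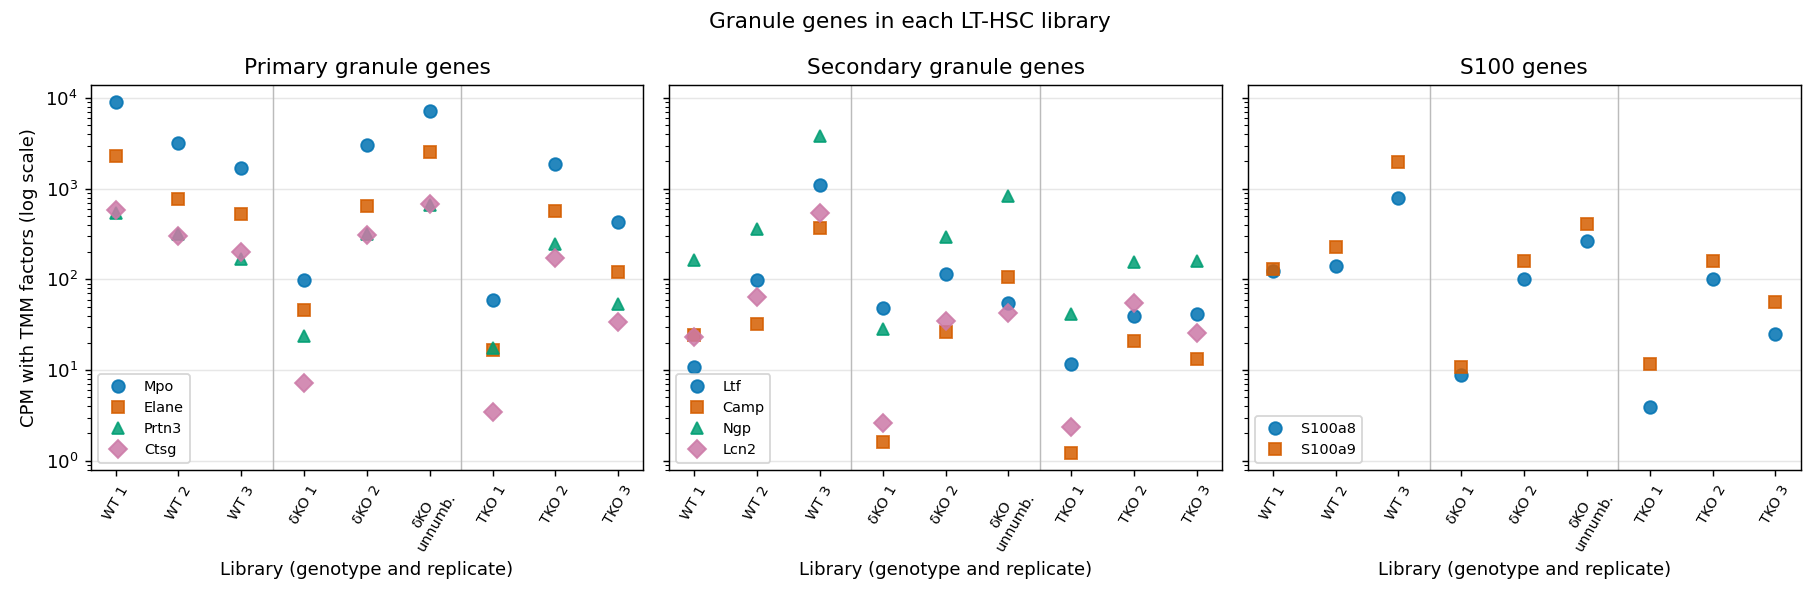
CPM with TMM factors (vertical axis, log scale) of the primary granule, secondary granule and S100 genes in each of the 9 libraries (horizontal axis), 1 point for each gene and library. The primary granule genes peak in WT replicate 1 or the unnumbered δKO library (Mpo at 8952 and 7222 CPM), the secondary granule and S100 genes peak in WT replicate 3 (Ngp at 3840 CPM), and δKO replicate 1 and TKO replicate 1 are low for both.

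All 6 secondary granule and S100 genes were highest in WT replicate 3, where 7.1% of the kept genes had their highest level. In all 6 this library was at least 2 times every other library, which held for 1.24% of kept genes, and the margin over the next library ran from 2.98-fold for S100a8 to 9.58-fold for Ltf. None of the 4 primary granule genes peaked there. Mpo alone was highest in WT replicate 1, the top library of 8.14% of kept genes, and Elane, Prtn3 and Ctsg were highest in the unnumbered δKO library, by 1.10-, 1.22- and 1.16-fold over WT replicate 1 for Elane, Prtn3 and Ctsg. For 9 of the 10 genes, Ltf being the exception, δKO replicate 1 and TKO replicate 1 were the 2 lowest libraries, against 7.77% of kept genes. δKO replicate 1 also had the fewest genes detected, 18180, the lowest TMM factor, 0.781, and r between 0.802 and 0.847 with the other libraries on log2 CPM. TKO replicate 1 had 21362 genes detected, and the unnumbered δKO library, high for the primary granule genes, had 18500. The part of such library differences in the granule gene values was not tested. The least abundant value, for Camp in δKO replicate 1, still rested on 40 counts. These shares describe libraries that the choice of genes had in view.

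The split between the classes set WT replicate 3 apart. The 4 primary granule genes held 96.3% of the summed CPM of the 10 genes in WT replicate 1, 83.3% in WT replicate 2 and 23.1% in WT replicate 3. In the δKO libraries they held 63.5% in replicate 1, 85.4% in replicate 2 and 86.7% in the unnumbered library, and in the TKO replicates 57.5%, 84.4% and 66.3%. In 8 libraries the primary granule genes were thus the larger class, and in WT replicate 3 the 6 later genes exceeded them by 3.33-fold. The mean share was 69.4% in TKO, 78.5% in δKO and 67.6% in WT, with an SD of 39.0 in WT (n = 3), so it differed more among the WT libraries than between the genotype means.

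Summed over the 4 primary granule genes, WT had 6533 ± 5167 CPM, δKO 5187 ± 5513 CPM and TKO 1204 ± 1475 CPM (SD, n = 3). The 6 later genes summed to 309 ± 231 CPM in TKO, 846 ± 807 CPM in δKO and 3341 ± 4578 CPM in WT (SD, n = 3). These SDs were above the means for the primary granule genes in δKO and TKO and for the later genes in WT, and below them in the other cases. The 10 genes held 1.27%, 0.613% and 1.16% of all counts in WT replicates 1, 2 and 3, but 0.0216% in δKO replicate 1 and 0.0192% in TKO replicate 1.

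**Figure D2:**
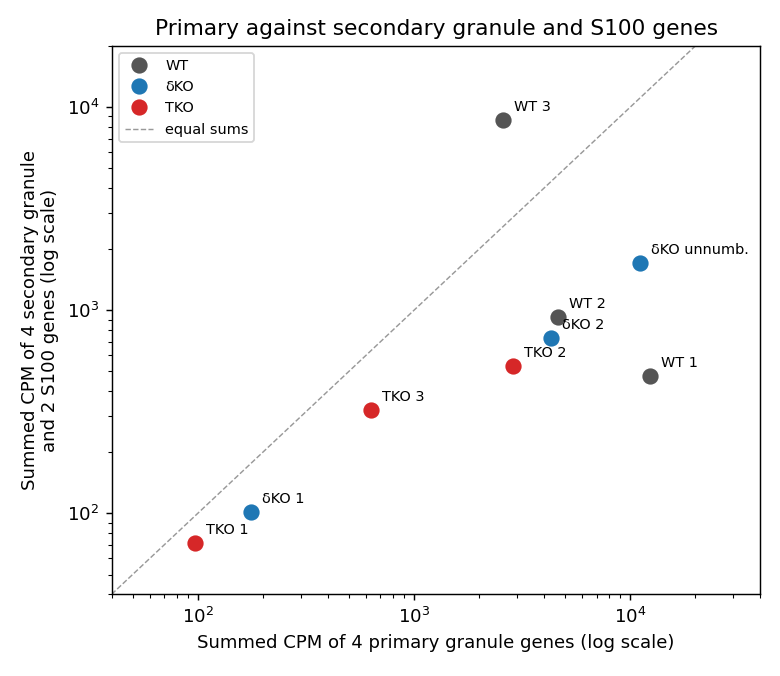
Summed CPM of the 4 primary granule genes (horizontal axis, log scale) against that of the 4 secondary granule and 2 S100 genes (vertical axis, log scale), 1 point for each library, coloured by genotype, with a dashed line at equal sums. WT replicate 3 is the sole library above the line (2592 against 8620 CPM), the other 8 libraries lie below it, and WT replicate 1 is farthest below it (12384 against 476 CPM).

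Per kilobase of exon, a scale for comparing genes with each other, Mpo and Elane had the highest mean over the 9 libraries, 863 and 851 CPM per kilobase. The length used is the union of all annotated exons of a gene, 2623 bases for Lcn2 and 758 for Camp, and not that of 1 transcript. The order below holds for these lengths only. S100a9 followed with 668, Ngp with 534, S100a8 with 249, Ctsg with 247 and Prtn3 with 151 CPM per kilobase. Camp, Ltf and Lcn2 closed the order with 87.4, 49.2 and 33.7 CPM per kilobase. The order depended on WT replicate 3. Without it, in a comparison chosen after seeing the data, the means were 280 for S100a9, 253 for Ctsg, 208 for Ngp and 139 CPM per kilobase for S100a8, so that Ctsg stood above Ngp and S100a8, while Mpo was at 909 and Elane at 889. The lead of Mpo and Elane in turn drew on WT replicate 1, at 2614 and 2342, and on the unnumbered δKO library, at 2109 and 2569 CPM per kilobase. S100a9 was at 251 and 785 CPM per kilobase in these libraries. Means without either of them are not given. Neighbours in this order overlapped in their library ranges, since Mpo alone ran from 17.5 to 2614 CPM per kilobase. In WT replicate 3 the order was another, with S100a9 first at 3778 CPM per kilobase, Ngp at 3143 and Mpo at 494. On this scale the later genes also outweighed the primary granule genes in TKO replicate 1 and TKO replicate 3, where the primary share was 41.5% and 49.6%.

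Correlations between the genes depended on the class and, for the later genes, on WT replicate 3. Over the 9 libraries, on log2(CPM + 1), the 6 pairs of primary granule genes had Pearson's r between 0.988 and 0.996 and Spearman's rho between 0.95 and 0.983. Pairs of secondary granule genes, and S100a8 with S100a9, had r between 0.713 and 0.982, and pairs of a secondary granule gene with an S100 gene between 0.655 and 0.990. The low ends of both ranges were pairs with Ltf. Pairs of a primary granule gene with a later gene had r between 0.196 and 0.884 with a median of 0.718, and without WT replicate 3 that median was 0.905. Without WT replicate 3 the pairs of secondary granule genes, with the S100 pair, had a median r of 0.876 in place of 0.939, which was below the median between classes. Pairs of a secondary granule gene with an S100 gene then had a median r of 0.925 and a lowest r of 0.415, in a pair with Ltf. The primary granule pairs had r between 0.990 and 0.997 over the same 8 libraries. The mean pattern of the primary granule genes and that of the later genes correlated with r = 0.704 and rho = 0.65 over 9 libraries and with r = 0.918 over the 8 libraries without WT replicate 3. Points share the library and its depth and the counts of 3 genotypes, so these are descriptions.

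Other genes of the same steps were read from lists. Named from each are mainly its most abundant genes, with Ly6g, Cxcr2, Itgam and Cd48 and the few genes said to be chosen after their values were seen. Among 6 partners of the primary granule proteases and promyelocyte genes, 5 were highest in the unnumbered δKO library, the top library of 17.1% of kept genes. Srgn, whose proteoglycan serglycin packs the granule proteases, was at 295 to 785 CPM, so its libraries differed less than those of the proteases. Serpinb1a, an inhibitor of these proteases, ran from 9.93 to 143 CPM. Ms4a3, a membrane gene of granulocyte and monocyte progenitors, ran from 1.74 CPM in TKO replicate 1 to 183 CPM in the unnumbered δKO library. The transcription factor list of 9 genes was led by Myb at 280 to 661 CPM, Runx1 at 179 to 341 CPM and Spi1, the gene of PU.1, at 22.2 to 200 CPM, and 5 of its 9 genes were highest in the unnumbered δKO library.

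Of 11 other secondary and tertiary granule genes, 9 were highest in WT replicate 3, the top library of 7.1% of kept genes. Lyz2, which encodes lysozyme and is also expressed by monocytes, was at 1019 CPM there against at most 515 CPM elsewhere. Chil3, a chitinase-like protein of neutrophil precursors and macrophages, was at 793 CPM against at most 107 CPM elsewhere. Cybb, the gp91phox subunit of the phagocyte oxidase, was at 353 CPM against at most 187 CPM.

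Of 12 genes of mature neutrophils, 10 were also highest in WT replicate 3, against 7.1% of kept genes, but at low levels. Ly6g, which encodes the neutrophil surface antigen Ly6G, was at 6.80 CPM in WT replicate 3 and at most 1.25 CPM in the other 8 libraries, with 0 counts in δKO replicate 1 and TKO replicate 2. Cxcr2, the chemokine receptor that draws neutrophils into blood, was at 38.3 CPM in WT replicate 3, 31.2 CPM in the unnumbered δKO library and 0.813 to 15.2 CPM elsewhere. Trem1, a receptor that amplifies neutrophil and monocyte activation, was at 59.0 CPM against at most 15.6 CPM. Csf3r, the G-CSF receptor, which progenitors express as well, was at 50.8 to 265 CPM and highest in WT replicate 1. The summed level of the 12 genes was 382 CPM in WT replicate 3 and 65.6 to 313 CPM in the other libraries. Csf3r alone held 198 CPM of that sum in WT replicate 3 and 265 of 298 CPM in WT replicate 1. Under 1 CPM everywhere were 2 of the 12, which were not kept for testing and count among the 10.

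**Figure D3:**
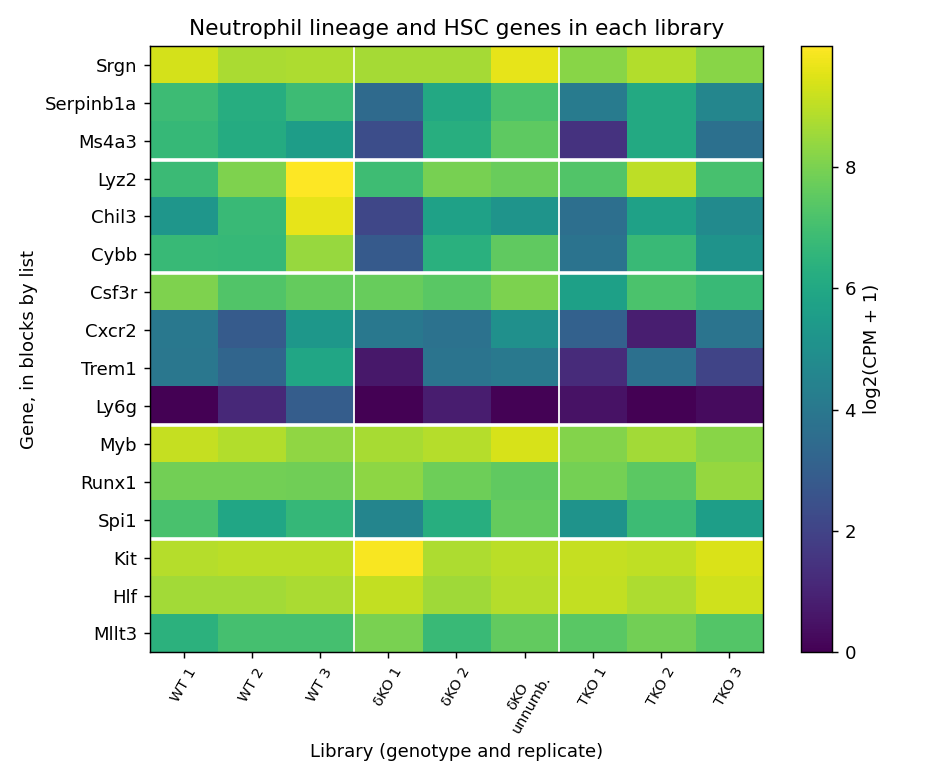
Level as log2(CPM + 1) (colour) of 16 genes (rows) in the 9 libraries (columns), in blocks for promyelocyte genes, other secondary granule genes, mature neutrophil genes, transcription factors and HSC markers. Lyz2, Chil3, Cybb, Trem1 and Ly6g are brightest in WT replicate 3 (Chil3 at 793 CPM and Ly6g at 6.80 CPM), and Kit and Hlf are bright in every library.

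Markers of other cells moved partly with these levels, and their part in the granule gene values was not tested. Itgam, which encodes the CD11b that lineage depletion targets, was at 163 CPM in WT replicate 3, 175 CPM in the unnumbered δKO library, 8.97 CPM in δKO replicate 1 and 8.67 CPM in TKO replicate 1. Flt3, the gene of Flk2, and Cd48 encode proteins the gate selects against. Flt3 was at 115 CPM in WT replicate 1, the library with the most Mpo, and at 7.06 to 55.2 CPM in the other 8, while Cd48 was at 5.82 to 23.1 CPM. The summed level of 12 monocyte and macrophage markers, led by Ly6c2 at 3.78 to 291 CPM, F13a1 at 5.53 to 89.7 CPM and Mpeg1 at 1.40 to 57.3 CPM, was 507 CPM in WT replicate 1, 183 CPM in WT replicate 3 and 51.1 to 411 CPM elsewhere, with 3 of the 12 under 1 CPM everywhere. The 12 HSC markers summed to 1194 to 1396 CPM in WT, 1227 to 2494 CPM in δKO and 1690 to 2033 CPM in TKO libraries, and the top 2 libraries for that sum were δKO replicate 1 and TKO replicate 3. In δKO replicate 1 and TKO replicate 1, the low libraries for granule genes, 7 and 3 of the 12 HSC markers had their highest level, against 23.7% and 10.6% of kept genes. Ly6a, on the same list, was instead lowest in δKO replicate 1, at 2.15 CPM. Of 8 T and NK cell markers 6 stayed under 1 CPM in all libraries, Nkg7 being the most abundant at 3.75 to 231 CPM, and of 9 B cell markers 4 did, Ighm being the most abundant at 4.28 to 147 CPM.

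The comparison of TKO with WT asks what loss of all 3 subunits does to these transcripts. All 10 genes were lower in TKO, with a median log2 fold change of -2.97 against 0.017 over all 18205 genes tested, and none of the 10 passed the test (edgeR, quasi-likelihood test adjusted over all genes by Benjamini-Hochberg, called at an adjusted p under 0.05 and more than 2-fold). The background of this call was 0.00549%, 1 gene of 18205. By DESeq2 on the 9 libraries 0 of the 10 were called as well, against 0.649% of its genes. At an unadjusted p under 0.05, without regard to the number of genes, 6 of the 10 had lower levels in TKO, against 4.19% of all genes in either direction. These 6 were the 4 secondary granule genes and the S100 pair. All 6 were chosen with their levels in single libraries known and were highest in WT replicate 3. Their number against that share is therefore not independent evidence.

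Ltf differed most between TKO and WT, by a log2 fold change of -3.71 (SE 1.20, adjusted p = 1.00 by edgeR), and its groups overlapped because WT replicate 1 was the lowest library. Ngp differed by -3.61 (SE 1.25) and Camp by -3.59 (SE 1.43), both with all TKO libraries below all WT libraries. Mpo differed by -2.55 (SE 1.28), Elane by -2.36 (SE 1.26), Ctsg by -2.37 (SE 1.30) and Prtn3 by -1.68 (SE 1.02), all on the log2 scale. Every TKO library lay below every WT library for 4 of the 10 genes, Ctsg, Camp, Ngp and S100a8, against 7.46% of genes tested.

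The size of the difference rested on single libraries of both genotypes. Without WT replicate 3 the 6 later genes had a median log2 fold change of -1.19 in place of -3.46, with Ltf at -0.82 and Ngp at -1.15, while the primary granule genes stood at -2.69 in place of -2.36. Leaving out WT replicate 1 moved the primary granule genes to -1.56 and the later genes to -3.97. Leaving out TKO replicate 2 moved the primary granule genes to -4.19 and the later genes to -4.10, with Mpo at -4.25 and S100a8 at -4.60. Without WT replicate 3, all TKO libraries lay below both remaining WT libraries for 7 of the 10 genes, against 12.5% of genes tested, an arrangement examined after the values were seen. All 10 genes stayed lower in TKO in each of these fits, and 0 were called.

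**Figure D4:**
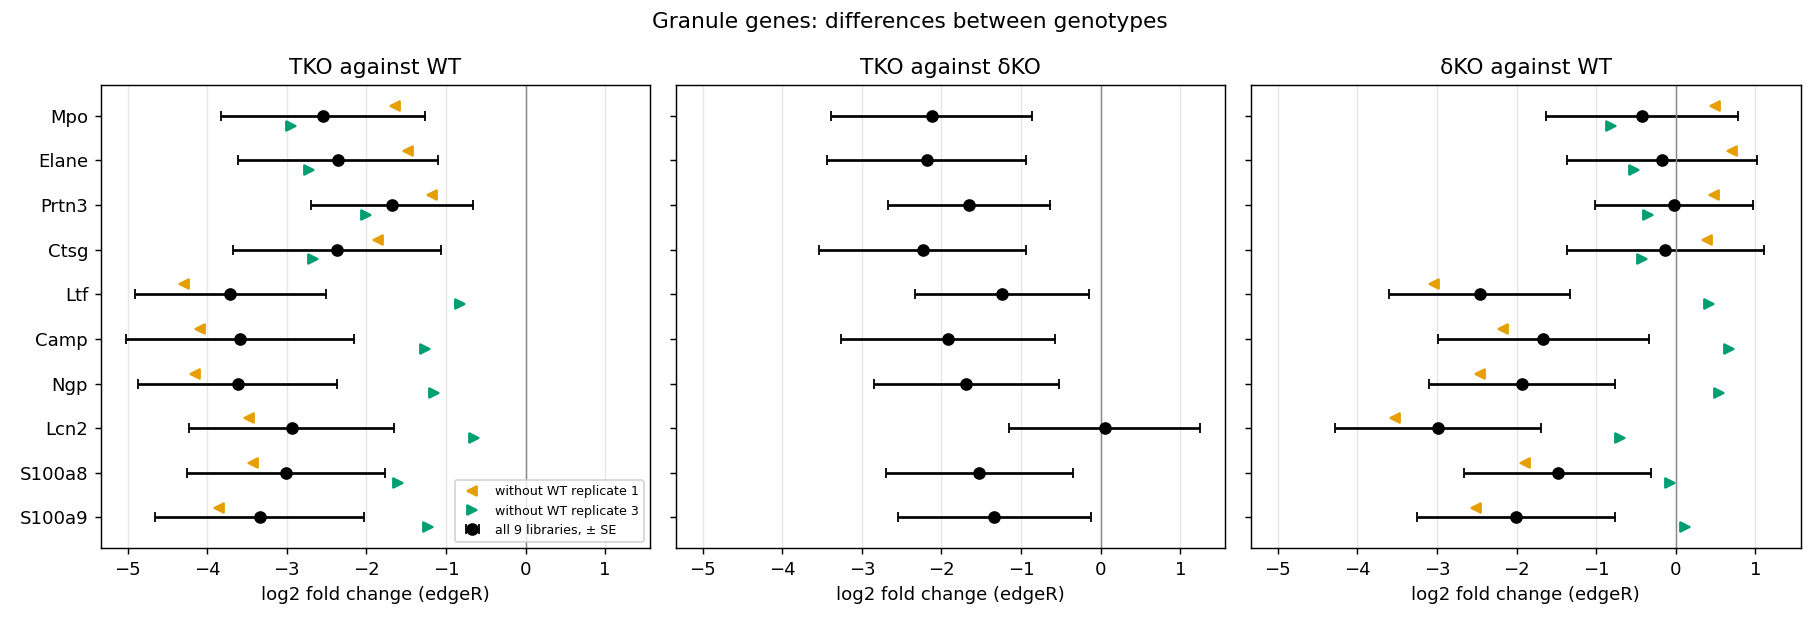
Log2 fold change of each granule gene (horizontal axis, edgeR) in 3 panels that compare TKO with WT, TKO with δKO and δKO with WT, with black points and bars for the estimate ± SE from all 9 libraries and coloured triangles for fits without WT replicate 1 or WT replicate 3. Without WT replicate 3 the secondary granule and S100 genes come closer to 0 in TKO against WT (Ltf from -3.71 to -0.82), and in δKO against WT they lie between -0.70 and 0.67.

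In TKO against δKO, which differ in the Cre and so in the excision of Pik3ca and Pik3cb, 9 of the 10 genes were lower in TKO and Lcn2 was at 0.050 on the log2 scale (SE 1.20). None of the 10 was called, and the background was 0% by edgeR and 2.81% by DESeq2, which also called 0 of the 10. No member had an unadjusted p under 0.05, against 10.2% of all genes. The median log2 fold change was -1.67 against -0.055 over all genes, with Ctsg at -2.24 (SE 1.30), Elane at -2.19 (SE 1.25) and Mpo at -2.12 (SE 1.26). Only Ltf had all TKO libraries below all δKO libraries, at -1.24 (SE 1.09), against 4.75% of genes tested. The unnumbered δKO library carried much of the difference, since without it the median of the 10 genes was -0.50, while without TKO replicate 2 it was -2.87.

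In δKO against WT, which sets the loss of p110δ without Cre against WT with Cre, the primary granule genes had a median log2 fold change of -0.15 and the secondary granule genes one of -2.20. None of the 10 was called by edgeR, where the background was 0.00549%, or by DESeq2, where it was 1.04%. Lcn2, at -2.99 (SE 1.29), was the 1 gene of the 10 with an unadjusted p under 0.05, against 7.01% of all genes. No member had all δKO libraries below all WT libraries, against 7.38% of genes. Mpo stood at -0.42 (SE 1.21), Elane at -0.17 (SE 1.20) and Ngp at -1.93 (SE 1.17). The direction of 8 of the 10 genes turned with a single library left out. Without WT replicate 1, Mpo was at 0.49 and Elane at 0.71, and without δKO replicate 1 they were at 0.15 and 0.39. Without WT replicate 3, Ltf was at 0.42, Camp at 0.67, Ngp at 0.54 and S100a9 at 0.11, while Lcn2 was at -0.70. The median of the 6 later genes was then 0.27 in place of -1.97. With the replicate number as a block the median of the primary granule genes was -3.57, and still no gene of the 10 was called. TKO against WT and δKO against WT share the WT libraries, and both comparisons with δKO share the δKO libraries, so the members' values in them are not separate evidence.

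The lists, like the members, were chosen with earlier results of these data known, so the list counts and shares below are not independent evidence. The other lists stood as follows in TKO against WT, with no gene of any list called by edgeR. Of the 93 genes tested outside the members, lists of other lineages included, 18 had an unadjusted p under 0.05, against 4.19% of all genes, and 4 were called by DESeq2 on the 9 libraries, against 0.649%. These 4, named here after their values were seen, were Cebpd, a transcription factor of myeloid cells (edgeR log2 fold change -3.59, DESeq2 adjusted p = 0.0197), the basophil protease gene Mcpt8 (-5.08, DESeq2 adjusted p = 0.0088) and the HSC markers Fgd5 (1.61, DESeq2 adjusted p = 0.0356) and Tie1 (1.11, DESeq2 adjusted p = 0.0496). Cebpd was at 14.1, 11.5 and 12.1 CPM in WT, at 0.199, 1.57 and 3.72 CPM in δKO and at 0.707, 2.03 and 0.402 CPM in TKO, so the WT libraries were above all others. All 6 promyelocyte genes and all 11 other secondary and tertiary granule genes were lower, with medians of -1.50 and -2.55. Of these 11, 9 were highest in WT replicate 3, as were 10 of the 12 mature neutrophil genes. List medians without that library are not given here. Of the 10 mature neutrophil genes tested 9 were lower with a median of -2.02, and of 9 transcription factors 7 were lower with a median of -0.91. Of the 9 monocyte and macrophage markers tested 7 were lower with a median of -1.17, and all 12 HSC markers were higher with a median of 0.75. Of the 10 basophil, mast cell and eosinophil markers 8 were lower with a median of -1.12, and all 4 tested genes of the markers the sort selects against were lower with a median of -1.29. Of 8 erythroid markers tested 6 were higher with a median of 0.71, and of 7 megakaryocyte markers 5 were higher with a median of 0.54. The medians of the 6 B cell markers and of the 2 T and NK cell markers tested were -0.41 and -0.77. The median of all genes in this comparison was 0.017. In δKO against WT the medians were 0.063 for promyelocyte genes, -1.05 for the other secondary and tertiary granule genes and 0.55 for the HSC markers. No gene of the lists was called by DESeq2 there, and 7 had an unadjusted p under 0.05, against 7.01% of all genes. In TKO against δKO the medians were -1.56 for promyelocyte genes, -1.44 for the other secondary and tertiary granule genes, -0.50 for mature neutrophil genes and 0.21 for the HSC markers. No gene of the lists was called by edgeR in that comparison, 14 had an unadjusted p under 0.05, against 10.2% of all genes, and 4 were called by DESeq2, against 2.81%. These, also named after their values were seen, were Ctsc, the gene of the protease that activates the granule serine proteases (edgeR log2 fold change -1.39, DESeq2 adjusted p = 0.0365), the granule glycoprotein gene Olfm4 (-7.19, DESeq2 adjusted p = 0.0180) and the erythroid genes Alas2 (1.60, DESeq2 adjusted p = 0.0172) and Hemgn (1.22, DESeq2 adjusted p = 0.0187). Olfm4 was at 9.81 CPM in δKO replicate 1, 2.25 CPM in the unnumbered δKO library and 0 in δKO replicate 2, and at 0 to 0.0581 CPM in TKO, so its groups overlapped at 0.

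Genes outside the members were ranked by their correlation over the 9 libraries with the mean pattern of each class, among the 10765 genes that averaged 5 CPM or more. For the primary granule genes the nearest were Ms4a3 (r = 0.993, rho = 0.983), Rab44 (r = 0.992), Sgms2 (r = 0.991), Clec12a (r = 0.990) and Abcd2 (r = 0.988). Clec12a, a myeloid inhibitory lectin receptor, ran from 2.39 CPM in TKO replicate 1 to 630 CPM in the unnumbered δKO library, and Sgms2, a sphingomyelin synthase, reached 285 CPM in the latter. The nearest to the secondary granule and S100 genes were Cd177 (r = 0.983, rho = 0.933), Trem1 (r = 0.938), Pilra (r = 0.935), Cybb (r = 0.930) and Chil3 (r = 0.926). Cd177, a surface glycoprotein of neutrophils and their precursors, was at 226 CPM in WT replicate 3 and at most 28.5 CPM in the other libraries. Ms4a3, Cd177, Trem1, Cybb and Chil3 were also on the lists above. The correlations rest on members chosen with these levels known and carry no p.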

How the data were processed

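Sorted LT-HSCs of 9 libraries were profiled by bulk RNA sequencing after cDNA amplification with the Ovation RNA-Seq System V2. The deposited file used here holds raw counts per gene, made by the authors with STAR 2.5.1b, which aligned reads to mm10 and counted them, after Trim Galore 0.3.7 and FastQC 0.11.4. Neither the annotation nor the joining of the 2 technical replicates of each library is given in the sources used here. A deposited table of counts divided by DESeq2 size factors (unit signal, per the file headers normalized by the authors) served as an alternative only. It was used for levels and class shares of the libraries whose number is the same in both files, which leaves out the unnumbered δKO library. Amplified reads without molecular identifiers are not independent molecules. Depth was 31300343 to 60386097 counts per library.

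Groups came from the labels. The members and all lists were chosen with earlier results of these data known. Genes were kept by filterByExpr (minimum count 10, 18205 genes), scaled by TMM and tested with edgeR 4.0.16 (R 4.3.3) in a quasi-likelihood fit of all 9 libraries without covariates, whose SE is the log2 fold change divided by the square root of F. DESeq2 1.42.0, other scalings and filters, the replicate number as a block and leaving out each library were alternatives. The fits were tested on simulated data. Symbols were matched for 47224 of 47643 identifiers. Named genes were all 10 members, at most the 3 most abundant of each other list with Ly6g, Cxcr2, Itgam and Cd48, and the 5 genes most like each class. A few list genes named beyond this rule are marked in the text, except the undetected Cd3e, Cd3g and Cd8a. Tables were read with pandas 2.3.3, and sequences came from RefSeq windows.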

Additional observations from a re-analysis of the deposited data

How the results depend on the processing

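No member was called in any of the 3 comparisons under any of the 17 alternatives run for each (upper-quartile and DESeq2 scaling, no filter, at least 10 counts in every library, DESeq2 on the 9 libraries and on each pair of genotypes, edgeR on each pair, the replicate block, and leaving out each of 9 libraries), with a lowest adjusted p of 0.094 by DESeq2. Of 801 recomputed values 779 kept their direction or stayed within the spread between replicates. In TKO against WT all 170 log2 fold changes stayed negative.

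The replicate number as a block, with the unnumbered δKO library in a block of its own, changed no call but moved values. The median of the primary granule genes went from -0.15 to -3.57 in δKO against WT, from -2.36 to -3.69 in TKO against WT and from -2.15 to -0.16 in TKO against δKO. Ltf went to -1.91 in TKO against WT and to 0.40 in δKO against WT, and Lcn2 to -0.0020 in TKO against δKO. Over all genes the correlations of the deviations of same-numbered libraries from their group means were between -0.036 and 0.083, so the numbers were not taken to pair the libraries, although Prg2, Epx and Pf4 were high in replicate 2 of all 3 genotypes. Leaving out 1 library at a time turned the direction of Lcn2 in TKO against δKO, which ran from -0.92 without TKO replicate 2 to 0.59. In δKO against WT it turned 8 genes. Mpo ran from -1.56 to 0.49, Elane from -1.82 to 0.71, Prtn3 from -1.0003 to 0.52, Ctsg from -1.20 to 0.44, Ltf from -3.04 to 0.42, Camp from -3.35 to 0.67, Ngp from -3.17 to 0.54 and S100a9 from -3.19 to 0.11. The positive values came without WT replicate 1, δKO replicate 1 or δKO replicate 2 for the primary granule genes and without WT replicate 3 for the others. Beyond the smaller number of libraries the cause was not tested. Per kilobase of exon the primary share moved by more than the spread between replicates, to 72.2% in δKO replicate 2 and to 41.5%, 69.2% and 49.6% in TKO replicates 1, 2 and 3. For the level of a single gene this scale is a constant and gives no other value.

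Upper-quartile scaling moved the median of all genes from -0.055 to 0.083 in TKO against δKO and from 0.046 to -0.10 in δKO against WT. DESeq2 on all 9 libraries called 125 genes between TKO and WT, 526 between TKO and δKO and 191 between δKO and WT, where edgeR called 1, 0 and 1. DESeq2 on each pair called 574, 268 and 196, and edgeR on each pair 9, 0 and 0. Without δKO replicate 1, edgeR called 4 between TKO and WT. With 3 libraries for each genotype and a common biological coefficient of variation of 0.805, the SE of a member's log2 fold change was between 0.99 and 1.43.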

Other observations

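Some genes of other lineages had library patterns unlike those of the granule genes, and Prg2, Epx and Pf4 are singled out here after their values were seen. Prg2, which encodes the major basic protein of eosinophils, was at 251, 359 and 156 CPM in replicate 2 of WT, δKO and TKO and between 1.05 and 54.7 CPM in the other 6 libraries. Epx, the gene of eosinophil peroxidase, was at 104, 136 and 93.4 CPM in the same 3 libraries and between 0.497 and 14.03 CPM in the other 6. Pf4, which encodes the platelet factor 4 of megakaryocytes, was at 167, 159 and 93.4 CPM there and between 19.2 and 48.5 CPM elsewhere. Mpo, in contrast, was higher in WT replicate 1 and the unnumbered δKO library than in any replicate 2 library. Other markers were highest in the same pair of libraries as Mpo, with Nkg7, a gene of cytotoxic granules, at 231 CPM in WT replicate 1, 192 CPM in the unnumbered δKO library and 3.75 CPM in δKO replicate 1, and the monocyte gene Ly6c2 at 291, 240 and 21.9 CPM in these libraries. In the other direction, Gata2, a factor of HSCs and of basophil and mast cell precursors, was at 573 CPM in δKO replicate 1, where the granule genes were low, and at 178 CPM in WT replicate 1. No test was made of these values.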
